A study of Drosophila melanogaster and Drosophila simulans and Drosophila yakuba with 27 samples.

Results

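The genes vestigial (vg), scalloped (sd), nubbin (nub), POU domain protein 2 (pdm2) and apterous (ap) encode transcription factors that select and pattern the wing. They were taken by symbol from a table of normalised expression, as 5 of its 15439 genes, and each had a value in all 27 libraries. Expression was measured by RNA sequencing in wing discs, eye-antennal discs and larval brains, which were dissected from wandering third-instar larvae reared at 25 °C. Each tissue had 1 library from each of 9 lines of 8 species, so the lines served as replicates of a tissue. The D. melanogaster lines were RAL-208, an inbred line of the Drosophila Genetic Reference Panel, and Canton S, a laboratory wild type. The D. simulans line carried w[501], an allele of the eye colour gene white, and the D. ananassae line is labelled In(3R)A. The lines labelled wild type came from D. virilis, D. mojavensis, D. willistoni, D. yakuba and D. pseudoobscura. No line received a treatment, each species other than D. melanogaster was represented by 1 stock, and the labels do not state how many animals went into a library.

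A selector gene encodes a transcription factor that commits a field of cells to form a given structure. Vestigial is a cofactor without a DNA-binding domain of its own that joins the TEAD-family protein Scalloped, and the complex drives wing genes. Scalloped also binds Yorkie, the coactivator restrained by the Hippo pathway, in growing tissues, the wing disc among them. Nubbin and Pdm2 are paralogous POU-domain proteins that act in the wing blade and hinge and, in the embryo, in the temporal series of neuroblasts. Apterous is a LIM-homeodomain protein that specifies the dorsal compartment of the wing disc and is also present in a subset of central neurons.

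In the Ensembl BDGP6.54 annotation of D. melanogaster, vg (FBgn0003975) lies on chromosome arm 2R between Nmda1 and NAT1. The gene sd (FBgn0003345) lies on X between PGRP-LE and CG8509. On arm 2L, nub (FBgn0085424) and pdm2 (FBgn0004394) are neighbours, with Ref2 as the only annotated coding gene between them. The gene ap, FBgn0000099 in the count tables, lies on arm 2R next to vlc. Whether reads from the conserved POU region of nub and pdm2 could be exchanged between the paralogs in the authors' counting was not tested.

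The wing disc libraries held 4114414 to 14308891 counted reads, the eye-antennal libraries 3642547 to 12811084 and the brain libraries 4943047 to 20473119. The summed signal of 8 eye-antennal markers (gl, toy, ey, lz, ro, dan, danr and Lim1) in a wing disc library was 1.10% to 8.63% of that in the eye-antennal library of the same line, and gl and danr were listed at 0 in the D. mojavensis wing disc library. The 10 brain markers reached 0.524% to 6.30% of the brain level in wing discs. Brains held the 8 eye-antennal markers at 28.6% to 87.4% of the eye-antennal level and the 5 wing disc markers (Dr, vvl, nab, Antp and tup) at 29.2% to 65.0% of the wing disc level, so those 2 lists do not set the brain apart. Eye-antennal libraries held the 10 brain markers at 2.24% (D. yakuba) to 21.3% (RAL-208) of the brain level. They held the 5 wing disc markers at 7.40% (D. virilis) to 29.8% (D. simulans) of the wing disc level, with 19.8% in Canton S and 18.9% in D. willistoni. Of these 5, tup did not set the discs apart, at 7.84 to 20.3 in eye-antennal discs and 8.61 to 14.8 in wing discs. Antp was also high in brains, at 8.78 to 27.1 against 19.7 to 29.8 in wing discs. Dr and Antp alone, genes of the wing disc and its notum, summed to 3.61% (D. pseudoobscura) to 19.0% (D. mojavensis) of the wing disc level. They summed to above 10% in RAL-208, D. ananassae, D. willistoni and D. mojavensis. The tissue differences of the 5 genes are given also for the 5 lines at or below that 10%. This split rests on Dr and Antp alone and was chosen after their values were seen. By all 5 wing disc markers D. simulans, at 29.8%, was the highest eye-antennal library, yet it is among the lines kept. The 4 ring gland markers summed to 5.23 to 167 in wing discs, 96.3 to 574 in eye-antennal discs and 112 to 490 in brains. The 4 muscle markers summed to 7.98 to 174 in wing discs, 63.6 to 679 in eye-antennal discs (highest in D. ananassae) and 14.2 to 491 in brains. In the 6 lines with a value for all 4 fat body markers, these summed to 326 to 9136 in wing discs, 43.6 to 8019 in eye-antennal discs and 24.1 to 1800.3 in brains. The part of ring gland, muscle and fat body in the results was not tested. In bulk tissue, fewer expressing cells and less RNA per expressing cell cannot be told apart.

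Levels are given in the deposited unit, a normalised signal, which is a read count divided by a constant for the gene and a factor for the library. In RAL-208 the constant followed exonic length (Pearson r = 0.983 across 8516 genes, which are not independent replicates), so signals of different genes compare per length there. This could not be checked for ap, whose identifier has since changed, and was not checked for the gene models of the other species. Log2 differences are of the signal plus 1, as the mean over the 9 lines with the standard error (SE) of a limma fit that keeps line as a block. The fit pools the spread of a gene over the tissues, so a gene has the same SE in each tissue contrast. A gene is called changed at a Benjamini-Hochberg adjusted p under 0.05 over 7677 genes.

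In the wing disc all 5 genes were higher than in the eye-antennal disc and higher than in the brain, in 9 of 9 lines each, and all 10 differences passed the test. Against the eye-antennal disc 21.3% of all tested genes were called and 6.24% were called higher in the wing disc. The split of these calls moved with the scaling: 479 genes were higher and 1154 lower as deposited, 773 higher and 1043 lower with library medians set equal, and 726 higher and 633 lower after quantile normalisation. Against the brain 60.2% were called and 28.2% were called higher, so such a call is common. After quantile normalisation the split against the brain was 3107 higher and 2031 lower, against 2164 and 2458 as deposited. Groups that did not overlap were rarer. Every wing disc library lay above every eye-antennal library for 0.339% of genes and above every brain library for 3.58%. The genes vg, nub, pdm2 and ap met both conditions, and sd met neither.

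**Figure D1:**
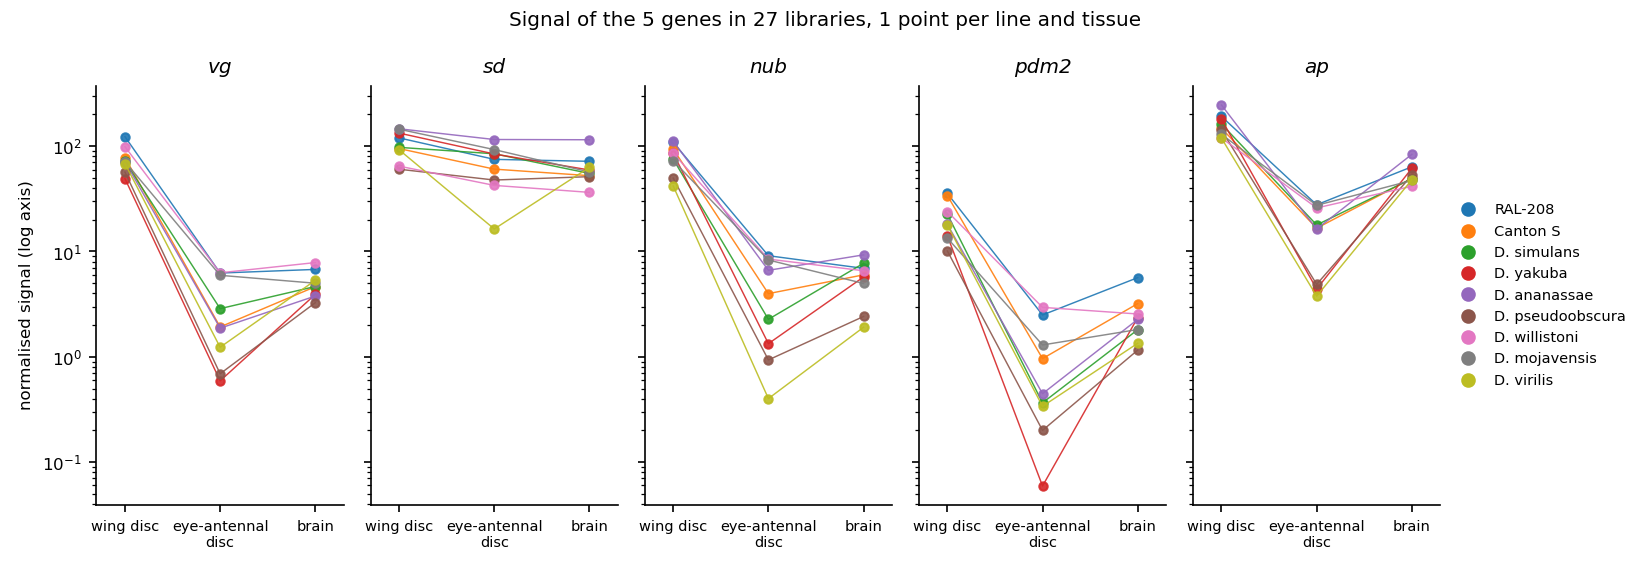
Normalised signal (log axis) of vg, sd, nub, pdm2 and ap in the wing disc, the eye-antennal disc and the brain, with 1 point per library and a line joining the libraries of 1 fly line. For vg, nub, pdm2 and ap the 9 wing disc points lie above all 18 points of the other tissues, while the sd points of the 3 tissues overlap.

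The cofactor gene vg had the largest log2 difference between the discs among the 5 genes. Its signal in wing discs was 49.1 at the lowest (D. yakuba), 71.3 at the median and 123 at the highest (RAL-208), against 0.591, 1.92 and 6.28 in eye-antennal discs and 3.26, 4.65 and 7.85 in brains. The wing disc group stood clear of both others, and the lowest wing disc library was still several-fold above the highest library of the other tissues. The mean was 76.4 ± 22.2 in wing discs, 3.07 ± 2.41 in eye-antennal discs and 5.02 ± 1.47 in brains (SD, n = 9 lines each). The log2 difference was 4.44 (SE 0.17, adjusted p = 1.25e-12) for the wing disc against the eye-antennal disc and 3.67 (SE 0.17, adjusted p = 1.16e-12) for the wing disc against the brain.

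Counting error was small against these gaps for vg. The lowest wing disc signal, 49.1 in D. yakuba, rested on 1024 reads with an exact Poisson 95% interval of 46.2 to 52.2. The lowest eye-antennal signal, 0.591 in the same line, rested on 10 reads with an interval of 0.283 to 1.09. The labels name no molecular identifiers, so such intervals cover counting error alone.

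The gene sd, which encodes the DNA-binding partner of Vestigial, was well expressed in all 3 tissues. Its signal was 60.4, 97.4 and 146 (lowest, median and highest) in wing discs, 16.4, 74.9 and 116 in eye-antennal discs and 36.4, 56.8 and 115 in brains. The ranges overlapped in every pair of tissues, although within each line the wing disc was the highest. The means were 106 ± 32.1 in wing discs, 68.8 ± 30.1 in eye-antennal discs and 62.3 ± 21.9 in brains (SD, n = 9 lines each). The log2 difference was 0.72 (SE 0.19, adjusted p = 0.00963) for the wing disc against the eye-antennal disc and 0.76 (SE 0.19, adjusted p = 0.00195) for the wing disc against the brain. In the 5 lines with low Dr and Antp the differences were 0.85 and 0.72, and neither passed the limma test (adjusted p = 0.143 and 0.0817). That fit holds fewer lines and keeps D. virilis, which stood apart in sd as described next. The part of either in the lost calls was not tested.

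D. virilis stood apart in sd. Its eye-antennal signal of 16.4 (211 reads, Poisson 95% interval 14.2 to 18.7) was the lowest of the 9, next to 42.4 in D. willistoni, while its wing disc signal of 92.3 and its brain signal of 62.9 lay inside the range of the other lines. The wing disc minus eye-antennal log2 difference was 2.43 in D. virilis and 0.20 to 0.67 in the other 8 lines. Without D. virilis the mean difference was 0.51 (adjusted p = 0.000792).

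The partners vg and sd therefore differed in how far the wing disc stood above the other tissues. The wing disc minus eye-antennal difference of vg exceeded that of sd by 3.71 ± 0.775 on the log2 scale (SD over lines; 9 of 9 lines; exact two-sided sign-flip permutation test, p = 0.00391, adjusted over 9 such tests 0.00586), and 0.00391 is the smallest p this design can give. Against the brain the excess was 2.92 ± 0.493, again in 9 of 9 lines with the same p. As a ratio of signals, sd over vg was 1.35 at the median in wing discs (0.654 in D. willistoni to 2.71 in D. yakuba), 29.5 in eye-antennal discs (6.76 to 143) and 11.8 in brains (4.64 to 30.5). Within every line the ratio was lowest in the wing disc and highest in the eye-antennal disc. The ratio of sd to vg also holds the gene models of a species: 1 read of sd was worth 0.441 times 1 read of vg in both D. melanogaster lines but 4.02 times in D. simulans, so its order among species is not read here. In RAL-208, where signal follows length, the ratio was 0.973 in the wing disc, 12.0 in the eye-antennal disc and 10.6 in the brain.

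**Figure D2:**
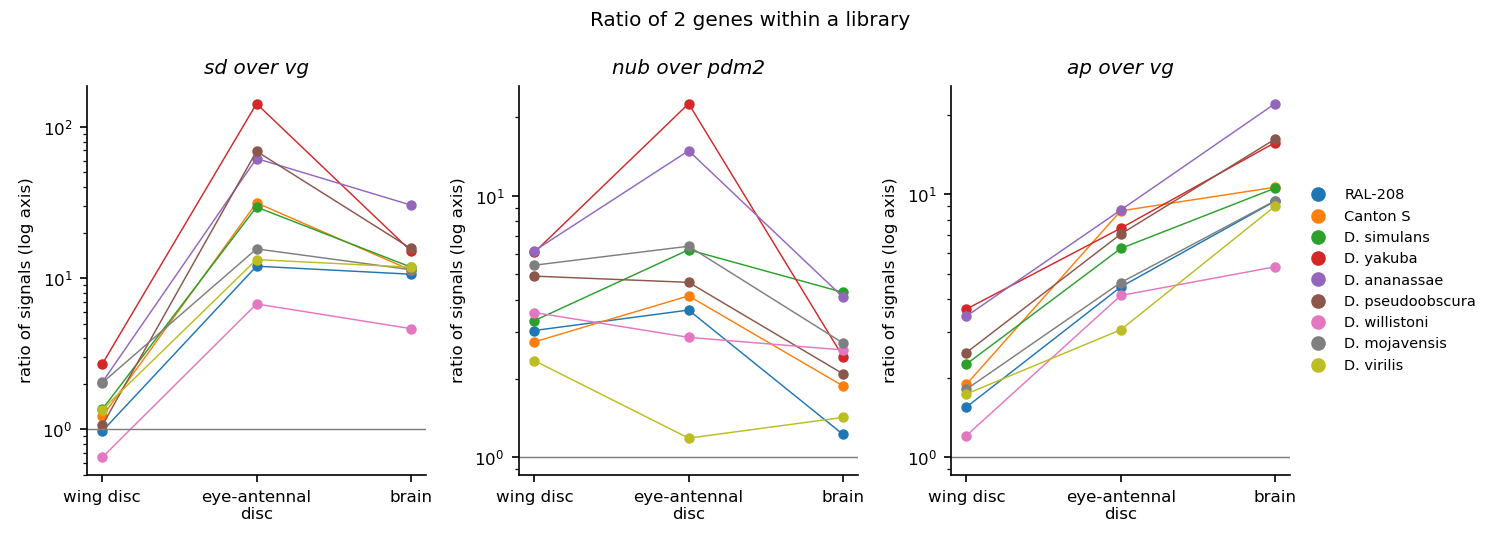
Ratio of the signals of 2 genes within a library (log axis; grey line at 1) in wing disc, eye-antennal disc and brain, with 1 line per fly line. The sd over vg ratio has a median of 1.35 in wing discs, 29.5 in eye-antennal discs and 11.8 in brains, and ap over vg has medians of 1.90, 6.23 and 10.6. The nub over pdm2 ratio stays above 1 in every library, though both genes had 7 reads in the D. virilis eye-antennal library.

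The POU gene nub, needed for growth of the wing blade, reached 41.8, 85.4 and 111 (lowest, median and highest) in wing discs, 0.401, 3.98 and 9.12 in eye-antennal discs and 1.91, 6.0 and 9.29 in brains. D. virilis was the lowest line for nub in all 3 tissues, and the wing disc did not overlap the other tissues. The means were 80.4 ± 23.7 in wing discs, 4.60 ± 3.55 in eye-antennal discs and 5.72 ± 2.37 in brains (SD, n = 9 lines each). The wing disc was higher than the eye-antennal disc by 4.13 on the log2 scale (SE 0.21, adjusted p = 2.8e-11) and higher than the brain by 3.64 (SE 0.21, adjusted p = 1.16e-11).

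The paralog pdm2 had the lowest signal of the 5 genes in all 3 tissues of RAL-208, and the lowest mean over lines in each tissue. It reached 10.1, 18.1 and 35.5 in wing discs, 0.0594, 0.446 and 2.95 in eye-antennal discs and 1.16, 2.27 and 5.64 in brains (lowest, median and highest). The eye-antennal values rested on 2 to 78 reads, so they are the least certain of the set, and the D. yakuba value of 0.0594 has an exact Poisson 95% interval of 0.00719 to 0.214. The wing disc again lay clear of the other tissues, with means of 21.1 ± 8.90 in wing discs, 1.01 ± 1.05 in eye-antennal discs and 2.46 ± 1.35 in brains (SD, n = 9 lines each). The log2 difference was 3.50 (SE 0.17, adjusted p = 1.52e-11) against the eye-antennal disc and 2.65 (SE 0.17, adjusted p = 3.34e-11) against the brain. With signals this low, the added 1 compresses the difference: it was 4.84 in an edgeR fit on the read counts and 1.45 with 10 added in place of 1.

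The paralogs differed in their contrast between wing disc and brain. The wing disc minus brain difference of nub exceeded that of pdm2 by 0.99 ± 0.477 on the log2 scale, in 9 of 9 lines (exact two-sided sign-flip permutation test, p = 0.00391, adjusted 0.00586). In D. simulans the sign rests on the added 1, as its ratio of nub to pdm2 signals was 3.33 in the wing disc and 4.27 in the brain. Over the alternatives run the mean excess was 0.79 to 1.22 and passed in each. Between the discs the excess of nub was 0.62 ± 0.564, in 9 of 9 lines with the same p, but it was -0.13 (adjusted p = 0.555) with 0.1 added to the signal in place of 1, so its direction is not settled for the low eye-antennal values. The ratio of nub to pdm2 was 2.34 to 6.16 in wing discs, 1.18 to 22.5 in eye-antennal discs and 1.23 to 4.27 in brains. The nub signal was the higher of the 2 in all 27 libraries. In the D. virilis eye-antennal library both genes had 7 reads, and their Poisson 95% intervals overlapped (0.161 to 0.826 for nub, 0.136 to 0.698 for pdm2). The order there rests on the constants of the 2 genes, which were not checked outside RAL-208.

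The dorsal selector gene ap was high in the wing disc, intermediate in the brain and lowest in the eye-antennal disc. Its signal was 119, 148 and 246 (lowest, median and highest) in wing discs, 3.77, 16.6 and 27.7 in eye-antennal discs and 41.6, 49.4 and 83.6 in brains. The 3 tissues did not overlap with one another, and every line kept this order. The means were 160 ± 41.0 in wing discs, 16.1 ± 9.86 in eye-antennal discs and 55.2 ± 12.7 in brains (SD, n = 9 lines each). The log2 difference was 3.49 (SE 0.28, adjusted p = 1.44e-08) for the wing disc against the eye-antennal disc and 1.51 (SE 0.28, adjusted p = 9.79e-05) for the wing disc against the brain.

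The brain level of ap set it apart from vg. The wing disc minus brain difference of vg exceeded that of ap by 2.17 ± 0.206 on the log2 scale, in 9 of 9 lines (exact two-sided sign-flip permutation test, p = 0.00391, adjusted 0.00586). Between the discs vg exceeded ap by 0.94 ± 0.608, in 8 of 9 lines (same exact permutation test, p = 0.00781, adjusted 0.0100), and this was -0.06 (adjusted p = 0.793) with 10 added to the signal. The ap over vg ratio had medians of 1.90 in wing discs, 6.23 in eye-antennal discs and 10.6 in brains.

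**Figure D3:**
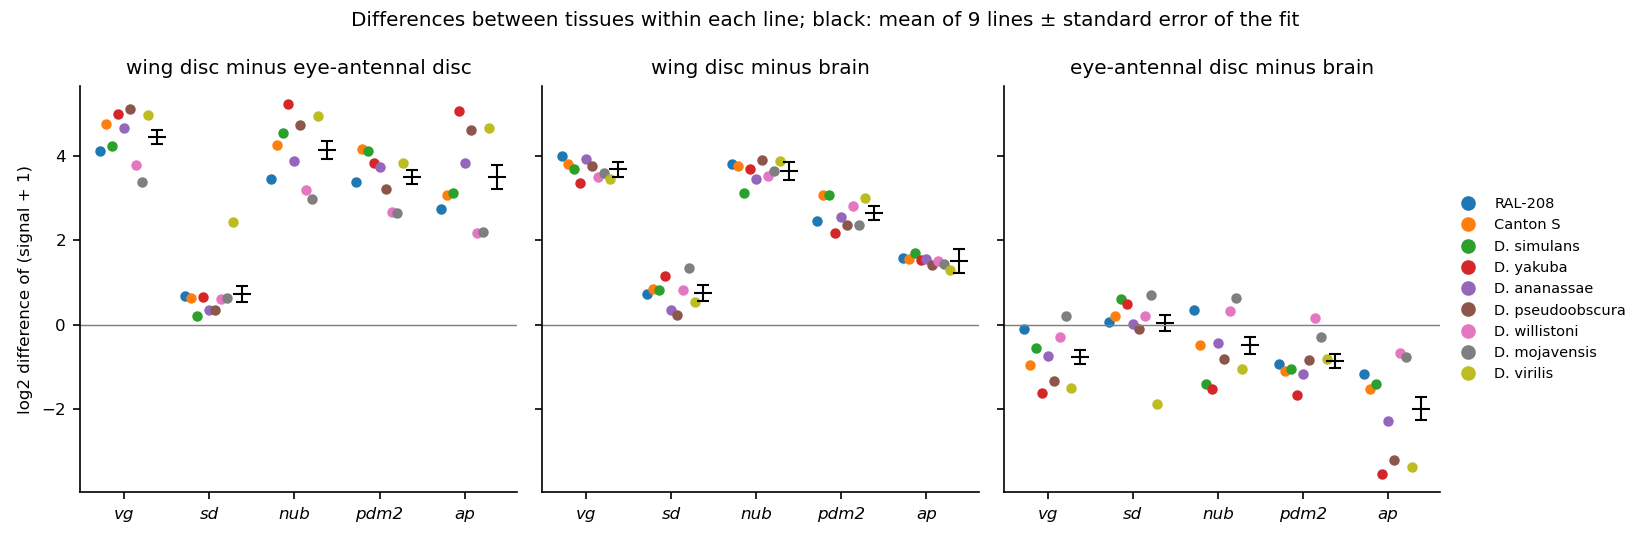
Log2 difference of (signal + 1) between tissues within each line (coloured points) and the mean of the 9 lines with the standard error of the fit (black) for vg, sd, nub, pdm2 and ap. The wing disc minus brain points of ap lie between 1.29 and 1.70, while its wing disc minus eye-antennal points spread from 2.16 to 5.07.

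For vg, nub, pdm2 and ap the contrast of wing disc with brain varied less from line to line than the contrast with the eye-antennal disc. Brain signal as a percentage of wing disc signal in the same line was 5.30 to 7.97 for vg, 4.57 to 10.3 for nub, 7.52 to 16.8 for pdm2 and 30.3 to 40.3 for ap. Eye-antennal signal as a percentage of wing disc signal was 1.20 to 8.34 for vg, 0.959 to 11.4 for nub, 0.422 to 12.3 for pdm2 and 2.44 to 21.7 for ap. The eye-antennal values of pdm2 rest on 2 to 78 reads. For sd the percentage was 39.2 to 85.0 for the brain, and 62.6 to 86.9 for the eye-antennal disc without D. virilis, which was at 17.7. Without that line, sd thus varied more in the contrast with the brain. The difference in spread between the 2 contrasts was not tested, and the SEs of the fit do not show it, as they are pooled over the tissues.

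The spread among eye-antennal libraries was shared by 4 of the 5 genes and by genes outside the set. The libraries of D. willistoni, RAL-208 and D. mojavensis were the 3 highest for vg (6.28, 6.24 and 5.94, with D. simulans next at 2.87). The same 3 were the highest for nub (8.47 in D. willistoni, 9.12 in RAL-208 and 8.30 in D. mojavensis, with D. ananassae next at 6.63). They were also the highest for pdm2 (2.95, 2.50 and 1.30 in that order of lines, with Canton S next at 0.961) and for ap (25.9, 27.7 and 27.4, with D. simulans next at 17.9). The libraries of D. yakuba, D. pseudoobscura and D. virilis were the 3 lowest for all 4 genes, and also for Dr and Antp. In the wing disc the lowest 3 for vg were the same lines, and RAL-208 and D. willistoni were its highest. The lowest 3 in the wing disc were D. mojavensis, D. pseudoobscura and D. virilis for nub, D. yakuba, D. mojavensis and D. pseudoobscura for pdm2, and D. mojavensis, D. willistoni and D. virilis for ap.

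Of the genes outside the set, Dr and Antp had the same 3 highest eye-antennal libraries as these 4 genes. Dr, the muscle segment homeobox gene of the dorsal wing disc, was at 8.0 in D. willistoni, 9.69 in RAL-208 and 10.1 in D. mojavensis, and between 1.5 (D. yakuba) and 6.5 (Canton S) in the remaining 6 eye-antennal libraries. Antp, the Hox gene of the thorax, was at 6.61, 8.50 and 10.3 in those 3 lines, and between 0.553 (D. pseudoobscura) and 6.02 (D. ananassae) in the rest. Ubx, the Hox gene of the haltere segment, was at 11.2, 2.74 and 4.06, with Canton S next at 1.92, and was listed at 0 in D. yakuba. The other posterior Hox genes followed in part. In D. willistoni, RAL-208 and D. mojavensis, abd-A was at 0.0616, 3.19 and 3.42, against 3.09 in Canton S. In the same order of lines Abd-B was at 0.0672, 0.460 and 0.619, against 0.573 in Canton S. The gene sd did not follow this order, as its 3 highest eye-antennal libraries were those of D. ananassae, D. mojavensis and D. simulans. The other 3 wing disc markers did not keep the order of Dr and Antp. In eye-antennal libraries vvl was highest in D. mojavensis and RAL-208, but at 14.8 in D. willistoni, below 24.6 in Canton S and 20.1 in D. ananassae. The nab signal was highest in D. simulans, at 34.3, and was 5.93 in D. willistoni. The tup signal was highest in RAL-208, Canton S and D. simulans. The 5 summed to 193 to 435 in wing discs and 16.3 to 95.7 in eye-antennal discs, and none was at 0 in any library. The part of wing disc or haltere disc tissue in these values was not tested. The 5 lines with low Dr and Antp leave out the 3 highest eye-antennal libraries of these 4 genes. Larger wing disc minus eye-antennal differences were therefore built into that split. They were 4.80 for vg, 4.73 for nub, 3.82 for pdm2 and 4.10 for ap in that fit, and its p-values cannot be read as support.

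**Figure D4:**
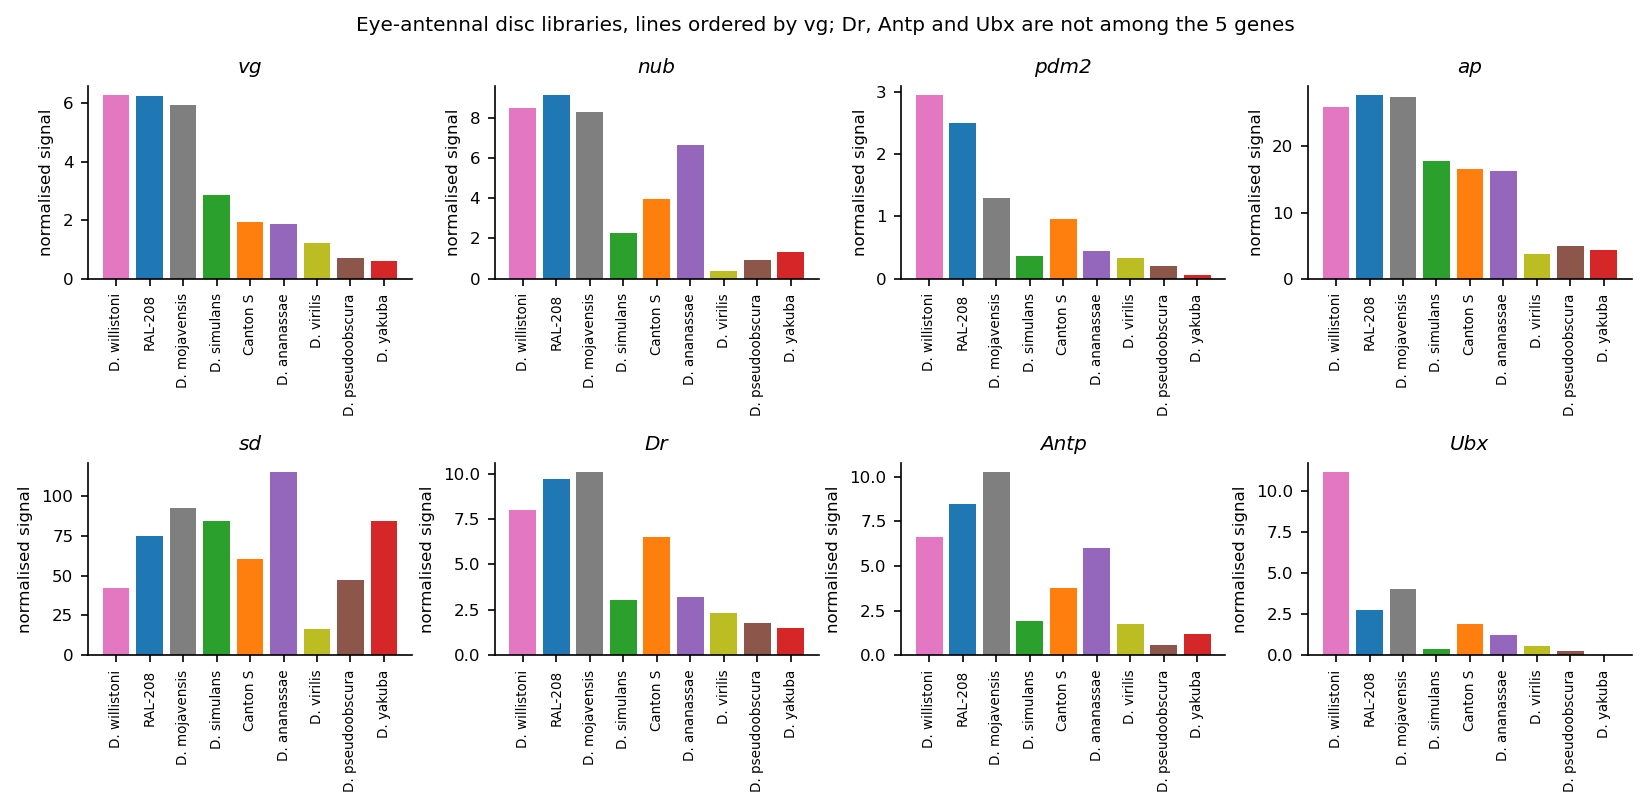
Normalised signal in the 9 eye-antennal disc libraries, ordered from left to right by vg, for vg, nub, pdm2, ap and sd and for Dr, Antp and Ubx, which are not among the 5 genes. The D. willistoni, RAL-208 and D. mojavensis bars are the 3 tallest in each panel other than sd.

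Between the eye-antennal disc and the brain, ap, pdm2 and vg were lower in the eye-antennal disc and sd and nub did not pass the test. In this comparison 52.6% of tested genes were called and 26.8% were called lower, against 3 of the 5 genes called lower here. The difference of ap was -1.99 on the log2 scale (SE 0.28, adjusted p = 4.98e-06; lower in 9 of 9 lines), and its groups did not overlap, as for 7.22% of genes. The difference was -0.86 for pdm2 (SE 0.17, adjusted p = 0.000208) and -0.76 for vg (SE 0.17, adjusted p = 0.000738), each lower in 8 of 9 lines. The 5 lines with low Dr and Antp leave out the 3 highest eye-antennal libraries of these genes, so larger differences were built into that split. In the limma fit to those lines they were -2.60 for ap, -1.09 for pdm2 and -1.19 for vg, and its p-values cannot be read as support. After quantile normalisation the values were -0.38 for pdm2 and -0.19 for vg, and neither passed.

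For nub and sd the call between eye-antennal disc and brain turned on single libraries. The difference of nub was -0.49 (SE 0.21, adjusted p = 0.0552; lower in 6 of 9 lines). It was -1.06 in the 5 lines with low Dr and Antp. These leave out D. ananassae and the 3 lines in which nub was higher in the eye-antennal disc (RAL-208, D. willistoni and D. mojavensis). A lower value was therefore built into that split. In the fits to all lines but 1, the nub difference passed the test when 1 of those 3 was left out. It was then -0.60 (adjusted p = 0.0310), -0.59 (0.0290) and -0.63 (0.0142) in that order of lines. The difference of sd was 0.03 (SE 0.19, adjusted p = 0.896; higher in 7 of 9 lines), and 0.27 (adjusted p = 0.0265) without D. virilis.

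Whether the tissue contrasts differed between the melanogaster subgroup (D. yakuba, D. simulans, Canton S and RAL-208) and the other 5 lines was tested as an interaction. None of the 5 genes passed in any of the 3 contrasts, in which 0%, 0.534% and 0.0651% of genes were called for wing disc minus eye-antennal disc, wing disc minus brain and eye-antennal disc minus brain. In the first of these limma called 0 genes, while 396 had an unadjusted p under 0.05. The differences between lineages ran from -0.33 (SE 0.38) for sd to 0.66 (SE 0.30, adjusted p = 0.910) for pdm2 in wing disc minus eye-antennal disc. They ran from -0.08 (SE 0.42) for nub to 0.23 (SE 0.38) for sd in wing disc minus brain, and from -0.59 (SE 0.30, adjusted p = 0.503) for pdm2 to 0.56 (SE 0.38) for sd in eye-antennal disc minus brain. The SEs were 0.30 to 0.59, and a difference between the lineages had to be well above its SE to be called. The 0.66 of pdm2, with an SE of 0.30, did not pass, so differences of that size could go undetected. The lines share ancestry and are not independent draws.

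Between the D. melanogaster strains, all 15 signals of the 5 genes were higher in RAL-208 than in Canton S, a pattern that 24% of genes show in all 3 tissues. The vg signal was 123 in RAL-208 and 77.9 in Canton S in wing discs, 6.24 and 1.92 in eye-antennal discs and 6.76 and 4.63 in brains. The sd signal was 120 in RAL-208 and 94.8 in Canton S in wing discs, 74.9 and 60.5 in eye-antennal discs and 71.8 and 52.4 in brains. The ap signal was 191 in RAL-208 and 148 in Canton S in wing discs, 27.7 and 16.6 in eye-antennal discs and 63.7 and 49.4 in brains. The gap was widest in the eye-antennal disc for vg, at 3.25-fold, against 1.58-fold in the wing disc and 1.46-fold in the brain. It was also widest there for pdm2, at 2.60-fold, against 1.05-fold and 1.76-fold, for nub, at 2.29-fold, against 1.16-fold and 1.15-fold, and for ap, at 1.67-fold, against 1.29-fold in both others. For sd it was narrowest there, at 1.24-fold, against 1.26-fold in the wing disc and 1.37-fold in the brain.

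None of these strain differences passed edgeR's quasi-likelihood test on the read counts with tissue as a block, which called 0.295% of 9476 genes. The log2 difference of RAL-208 over Canton S was 0.89 for vg (SE 0.25, adjusted p = 0.232), 0.33 for sd (SE 0.07, adjusted p = 0.186) and 0.45 for ap (SE 0.11, adjusted p = 0.206). It was 0.48 for nub (SE 0.23, adjusted p = 0.364) and 0.64 for pdm2 (SE 0.26, adjusted p = 0.314). DESeq2 on the same counts called 504 of the 9476 genes, where edgeR called 28. Its calls included vg, sd and ap, with DESeq2 adjusted p-values of 0.0216, 0.000463 and 0.0111. Without the eye-antennal libraries, where RAL-208 also held more Dr, Antp and brain markers than Canton S, the differences were 0.56 for vg, 0.35 for sd, 0.16 for nub, 0.38 for pdm2 and 0.33 for ap, none of them called. Without the brain libraries they were 1.01 for vg, 0.60 for nub and 0.54 for pdm2, and without the wing disc libraries 1.03, 0.64 and 1.01 in the same order of genes.

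The 3 genes most like each of the 5 over the 27 libraries were named, which gives 15 entries, of which 4 were members of the set and 4 were Dr. Likeness was the Pearson correlation of log2(signal + 1) centred within each line, among 6044 other genes with a mean signal of at least 10 (6045 for pdm2, whose own mean is lower). That minimum kept pdm2 out of the lists of the other genes. Its correlation was 0.986 with vg, above those of Dr and vvl, and 0.979 with nub, above those of Dr and tsh. The 27 points share 9 lines and 3 tissues, so the values are a description. Among the genes above that minimum, those nearest vg were nub (0.99), Dr (0.98) and vvl (0.98), which encodes another POU protein. Those nearest nub were vg (0.99), Dr (0.97) and tsh (0.96), the teashirt gene of the trunk and proximal wing. Those nearest pdm2 were vg (0.99), nub (0.98) and Dr (0.98), and those nearest ap were trh (0.96), Dr (0.95) and vvl (0.95). The gene trh, best known from the trachea, averaged 20.5 in wing discs, 4.36 in eye-antennal discs and 9.12 in brains. For sd the nearest were tws (0.94), spoon (0.94) and dom (0.93), none of which was among the 3 nearest of another of the 5 genes. The tws signal, for example, averaged 129 in wing discs, 114 in eye-antennal discs and 106 in brains. Ranked by Spearman's rho instead, 2 of the 3 nearest genes were kept for vg, sd, nub and ap each and 1 for pdm2, and tsh, with a rho of 0.765 to nub, was no longer among them. The correlation of sd with vg was 0.73, and among vg, nub, pdm2 and ap the pairs ranged from 0.87 to 0.99.

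Other genes of wing patterning moved with the set in part. Of 20 genes that pattern the wing pouch, margin and hinge, 16 were tested, and 12 were higher and 1 lower in the wing disc than in the eye-antennal disc, with a median log2 difference of 1.10 against -0.04 over all genes. Of all tested genes 6.24% were higher and 15% lower in this comparison. In the 5 lines with low Dr and Antp 11 were higher and 1 lower. The fit to those lines called 119 of all tested genes higher and 470 lower, against 479 and 1154 in all 9 lines. The genes wg, fng, N and dve lacked a value in some line and were not tested. The largest differences were those of vvl at 3.46 (SE 0.21), of kn, the gene of the central intervein region, at 2.54 (SE 0.19), of nab at 2.05 (SE 0.28) and of zfh2, a hinge gene, at 1.53 (SE 0.16). The vvl signal averaged 156 ± 59.998 in wing discs, 16.2 ± 11 in eye-antennal discs and 29.8 ± 12.3 in brains (SD, n = 9 lines each). The lower gene was ct, a margin gene that also acts in the antenna, at 5.29 ± 1.12 in wing discs and 16.1 ± 6.52 in eye-antennal discs. Against the brain, 13 of the 16 were higher in the wing disc and 1 was lower, where 28.2% of all tested genes were higher and 32% lower.

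Of 8 cofactors, targets and dorsal genes of Apterous, 6 were tested, and 3 were higher in the wing disc than in the eye-antennal disc and 0 lower (median 0.45). The share of all genes was again 6.24% higher and 15% lower. The counts of the list were the same in the 5 lines with low Dr and Antp. The fit to those lines called 119 of all genes higher and 470 lower. Those lines were chosen by Dr, which is in this list, so the repeat is not independent for Dr. Dr was higher by 3.56 (SE 0.14), with a signal of 63.3 ± 17.8 in wing discs and 5.12 ± 3.47 in eye-antennal discs. Ser, which encodes a Notch ligand of the dorsal cells, was higher by 1.27 (SE 0.13), and mew, which encodes the dorsal integrin alpha chain, by 0.91 (SE 0.11). Chi, whose product bridges Apterous dimers, was at 68.4 ± 22.5 in wing discs, 69.9 ± 26.0 in eye-antennal discs and 78.9 ± 23.7 in brains, with a wing disc minus eye-antennal difference of -0.02 (SE 0.05, adjusted p = 0.874).

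Of 12 Hippo pathway members, Scalloped partners and Scalloped-Yorkie targets, 4 were higher in the wing disc than in the eye-antennal disc and 0 lower (median 0.12). Of all genes 6.24% were higher and 15% lower. The 4 were ex at 0.56 (SE 0.12), fj at 0.49 (SE 0.13), Myc, listed as dm, at 0.46 (SE 0.09) and kibra at 0.34 (SE 0.11). After either rescaling of the libraries 5 of the 12 were higher, and more of all genes were called higher too. In the 5 lines with low Dr and Antp 2 of the 12 were higher. There 119 of all genes were called higher and 470 lower, against 479 and 1154 in the fit to all lines. The partner gene yki was at 90.9 ± 12.4 in wing discs, 90.3 ± 19.8 in eye-antennal discs and 59.8 ± 17.1 in brains, with a disc difference of 0.02 (SE 0.10, adjusted p = 0.900). Against the brain, 8 of the 12 were higher in the wing disc and 1 was lower, where 28.2% of all genes were higher and 32% lower. In the eye-antennal disc 8 were higher than in the brain and 0 lower, where 25.8% of all genes were higher and 26.8% lower.

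The other genes of the 2 protein families did not share the wing disc pattern, apart from vvl. Of 3 other POU genes, vvl was higher in the wing disc than in the eye-antennal disc, acj6 was lower by the fit at -0.84 (SE 0.22), though no longer called after quantile normalisation or in the 5 lines with low Dr and Antp, and pdm3 did not pass at -0.16 (SE 0.12). Of 6 other LIM-homeodomain genes, 0 were higher and 4 lower in the wing disc, where 15% of all genes were lower. After either rescaling 3 of the 6 were lower. Of all genes 1043 were lower with library medians set equal and 633 after quantile normalisation, against 1154 as deposited. In the 5 lines with low Dr and Antp 3 of the 6 were lower, where 470 of all genes were lower. Lim3, at 0.774 ± 0.550 in wing discs and 9.81 ± 3.63 in eye-antennal discs, differed by -2.60 (SE 0.22), and Lim1, at 3.05 ± 1.38 and 16.0 ± 5.24 in the same order, by -2.08 (SE 0.16). Awh differed by -1.18 (SE 0.13) and CG32105 by -0.56 (SE 0.20). Against the brain all 6 LIM-homeodomain genes were lower in the wing disc (5 lower and 1 higher after quantile normalisation), with a median of -2.94, where 32% of all genes were lower, while ap was higher there.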

How the data were processed

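Per the labels' protocols, the RNAqueous micro kit was used for RNA and Illumina TruSeq for the libraries. The submitters' processing notes name TopHat2 2.0 and HTSeq. Genome builds and counting options are not named there, so no gene coordinates are printed. The authors deposited read counts per gene for each library, and 1 table of a normalised signal under D. melanogaster symbols. The sources used here do not give the authors' normalisation or ortholog map.

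The 5 genes, and the lists of related genes and markers, were chosen with earlier results of these data known. Columns headed only by D. melanogaster were assigned to RAL-208, since the others name Canton S. Read counts of the 5 genes were found in the count tables of each line by matching the ratios between tissues within 1e-07, which gave 1 match per gene and line. Signal was compared between tissues with limma 3.58.1 on log2(signal + 1), with an intensity trend and line as a block, for 7677 genes at 1 or more in at least 9 of 27 libraries (of 9832 with a value in all), with 16 residual degrees of freedom. Lineage was tested as an interaction, with 14. The strains were compared with edgeR 4.0.16 (TMM, quasi-likelihood) on counts of genes at 1 CPM or more in at least 2 libraries, with tissue as a block; the SE is the log2 difference over the square root of F. DESeq2 1.42.0 was an alternative. Pairs of genes were compared by exact sign-flip permutation over lines. The pairing by line comes from the labels; after removal of the tissue means, the 27 pairs of libraries that share a line had correlations between 0.625 and 0.863. The fits were tested on simulated data.

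Besides the 5 genes, the text names for each the 3 most correlated genes with a mean signal of at least 10. From each list it names up to 4 called genes with the largest difference between the discs. The genes ct, Chi, yki, pdm3 and the markers given by library were named after their values were seen. The p-values of the tissue, lineage and gene-pair tests measure the spread between lines, 1 library each, which holds biological and technical variation together. In the tissue and lineage fits this spread was pooled over the tissues. An SE and p-value there can be too large for a contrast that varied little between lines. They can be too small for a contrast that varied more. In the strain comparison the tissues served as the replicates of a strain. Its p-values measure how the strain difference varied between tissues, with 1 library per strain and tissue.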

Additional observations from a re-analysis of the deposited data

Results flagged for a closer look

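Of 30 groups of 9 values of the 5 genes (signals per tissue and log2 differences per line), 4 held a value that lay far from the other 8 by Dixon's test at the 95% level, and chance flags about 1 in 20 groups. The brain signal of sd in D. ananassae was 115, next to 71.8 in RAL-208. The brain signal of pdm2 in RAL-208 was 5.64, next to 3.20 in Canton S. For sd in D. virilis, the log2 difference was 2.43 for wing disc minus eye-antennal disc and -1.88 for eye-antennal disc minus brain, and both rest on the eye-antennal signal of 16.4 in that line.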

How the results depend on the processing

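The wing disc stood above the eye-antennal disc and the brain, past the test's threshold, for vg, nub, pdm2 and ap under all alternatives run, with differences between the discs of 2.71 to 4.98 for vg, 2.62 to 4.73 for nub, 1.45 to 4.84 for pdm2 and 2.77 to 4.10 for ap. The tests between pairs of genes were not run in the 5 lines with low Dr and Antp. The fits limited to lines with low markers and the fit on recovered counts were chosen after seeing the data. Quantile normalisation moved the median of all genes by 0.15 for wing disc against brain; no other scaling moved a median by that much. The causes of the changes below were not tested, other than that fewer lines enter some fits.

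Without the replicate block by line, 709, 2665 and 2122 genes were called in the 3 tissue comparisons (wing disc against eye-antennal disc, wing disc against brain, eye-antennal disc against brain), and sd no longer passed between the discs (0.72, adjusted p = 0.120). The difference between vg and sd in eye-antennal disc minus brain (-0.80) and that between nub and pdm2 in wing disc minus eye-antennal disc (0.62) also lost their calls; the lineage interactions then called 1 gene for wing disc minus brain and 0 for eye-antennal disc minus brain. In the 5 lines with Dr and Antp at up to 10%, 589 genes were called between the discs, and sd no longer passed there (0.85) or against the brain (0.72). In eye-antennal disc against brain sd reversed to -0.13 in those lines. There nub was at -1.06, a lower value built into that split. In lines with brain markers at up to 10%, that sd value was -0.052. In the same comparison, quantile normalisation gave -0.19 for vg, 0.024 for nub and -0.38 for pdm2, none called, a pseudocount of 0.1 gave -0.73 for nub (adjusted p = 0.0446), and one of 10 gave -0.18 for pdm2, no longer called. Leaving out 1 line gave -0.049 to 0.27 for sd and -0.63 to -0.36 for nub.

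Between pairs of genes, a pseudocount of 0.1 gave -0.13 for nub minus pdm2 in wing disc minus eye-antennal disc and 0.92 in eye-antennal disc minus brain, where it passed. A pseudocount of 10 gave -0.27 for vg minus sd in eye-antennal disc minus brain and -0.063 for vg minus ap in wing disc minus eye-antennal disc, neither called.

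No lineage difference of the 5 genes passed under any alternative, and several near 0 changed sign. For wing disc minus eye-antennal disc, ap was -0.019 with a pseudocount of 0.1 and -0.0020 after quantile normalisation, and leaving out 1 line gave -0.10 to 0.32 for vg, -0.46 to 0.065 for sd and -0.51 to 0.30 for ap. For wing disc minus brain, nub was 0.19 with a pseudocount of 10, and pdm2 was -0.10 with one of 0.1, -0.053 with RAL-208 alone for D. melanogaster and -0.13 on recovered counts. Leaving out 1 line gave -0.030 to 0.19 for vg, -0.15 to 0.071 for nub and -0.057 to 0.24 for pdm2 there, and for eye-antennal disc minus brain -0.31 to 0.20 for vg and -0.18 to 0.69 for ap. The genes called in these interactions numbered 1 with a pseudocount of 10, 5 without a filter and 0 to 1 leaving out a line for wing disc minus eye-antennal disc. For wing disc minus brain they numbered 62 with a pseudocount of 10, 18 with RAL-208 alone and 5 (without RAL-208) to 73 (without D. ananassae) leaving out a line. For eye-antennal disc minus brain they numbered 11 with a pseudocount of 10, 10 after quantile normalisation and 2 to 9 leaving out a line.

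Between the strains, where edgeR called 28 genes, 43 were called without a filter on low counts, 0 without tissue in the model, 504 with DESeq2, and 0 (without the brain) to 333 (without the wing disc) leaving out a tissue. DESeq2 called vg at 0.92, sd at 0.35 and ap at 0.47, and nub and pdm2 passed under no alternative. The 2 residual degrees of freedom of the strain fit and the 2 to 78 eye-antennal reads of pdm2 limit the strain comparison and the pdm2 values.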
